A study of Mus musculus with 2 samples.

Results

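Zscan10 and Hp, the gene of haptoglobin, were examined for open chromatin in RAW264 cells that were either left undifferentiated or started towards osteoclasts. The loci were taken as fixed windows on mouse build mm9, from 23.5 to 24.0 Mb of chromosome 17 for Zscan10 and from 111.9 to 112.3 Mb of chromosome 8 for Hp, and every deposited DNase peak that overlapped a window was included. Together the windows held 41 of 29939 peaks. Of these, 25 lay in the Zscan10 window (12 without RANKL and 13 with RANKL) and 16 in the Hp window (7 and 9).

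RAW264 is a mouse macrophage-like cell line that forms osteoclasts, the cells that resorb bone, when it is given RANKL (receptor activator of NF-kappaB ligand). The study comprised 2 DNase-seq libraries, 1 from RAW264 cells without RANKL and 1 from RAW264 cells given GST-RANKL, a tagged form of the cytokine, at 234 ng/ml for 24 hours. In DNase-seq, a light digestion of nuclei with DNase I frees short pieces of DNA from accessible chromatin, and these are sequenced. Each condition had 1 library, so no value below has a replicate error, no test between conditions was possible, and all differences are differences between these libraries.

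Zscan10 encodes a zinc finger transcription factor with a SCAN domain, which is best known from pluripotent stem cells. Haptoglobin is a plasma protein that binds free haemoglobin. It is made mainly by the liver and rises in the acute phase response, and macrophages take up its complex with haemoglobin through the receptor CD163. A DNase-hypersensitive site marks DNA that is not wrapped tightly in nucleosomes, as at active promoters, enhancers and insulators. A site near a gene does not by itself say that the gene is read or that the site acts on it.

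In the RefSeq gene order of GRCm38.p6, the protein-coding neighbours of Zscan10 are the zinc finger genes Zfp13 and Zfp213 and then Vmn2r117, a vomeronasal receptor gene, on the lower side. On its upper side lies Mmp25, which encodes a membrane-anchored matrix metalloproteinase of leukocytes, followed by Bicdl2 and Thoc6. Hp lies between Txnl4b and Dhodh, the latter an enzyme of pyrimidine synthesis, with Dhx38 and Pmfbp1 beyond Txnl4b and Pkd1l3 and Ist1 beyond Dhodh. No mm9 annotation was used here, so distances are given from the centre of each window (23.75 and 112.1 Mb) and not from the genes' own ends, and sites were not assigned to promoters, exons or introns. For the same reason the macrophage identity of the cells was not checked against marker genes.

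The upstream sequence of Zscan10 in RefSeq is shown as background on the gene's own promoter. It is taken from GRCm38.p6, plus strand, from 250 bases before to 30 bases after the annotated start. Of the 2 genes, 1 was matched in the RefSeq promoter table. Capitals mark the match to a motif searched, in this case the ETS core.
Zscan10: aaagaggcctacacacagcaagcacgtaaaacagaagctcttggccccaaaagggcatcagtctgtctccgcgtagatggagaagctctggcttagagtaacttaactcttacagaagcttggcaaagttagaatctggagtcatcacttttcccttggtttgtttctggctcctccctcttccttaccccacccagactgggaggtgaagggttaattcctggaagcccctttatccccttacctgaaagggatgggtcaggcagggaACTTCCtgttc
Both strands were searched for motifs bound by factors of macrophages and osteoclasts. The ETS core GGAAGT occurred once, on the opposite strand, with its match beginning at base 20 after the start, and 22.3% of 32851 promoters of the same length held it. The longer ETS form used by PU.1 (GAGGAAGT, in 2.82% of promoters, which contains the ETS core), the AP-1 motif TGANTCA (7.46%), the NFAT motif TGGAAA (20.3%) and the E-box CACGTG used by MITF (6.79%) had no match in this window. Where this sequence lies relative to the mm9 sites below was not determined.

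The lists differed in peak shape throughout. Over the whole lists the median width was 1738 bp without and 233 bp with RANKL. In the Zscan10 window widths ran from 1043 to 2980 bp without RANKL and from 126 to 508 bp with RANKL, and in the Hp window from 1111 to 2743 bp and from 139 to 547 bp, so the widths of the lists did not overlap at either locus. The score is the authors' own value per peak, with a lowest value of 50.0 in both lists. Scores were ranked only within a list, where rank 1 is the highest of 13492 peaks without RANKL or of 16447 with RANKL.

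The site nearest to the centre of the Zscan10 window was called without RANKL and was absent from the RANKL list. It lay on chromosome 17 at 23735267 to 23737065, 13.8 kb below the centre, and was 1799 bp wide with a score of 146 (rank 3725, higher than 72.4% of its list). The nearest RANKL peak was 50.9 kb away. Of the 3725 peaks without RANKL that scored as high or higher, 243 (6.52%) had no RANKL peak on them, beside 39.3% over the whole list. This site scored lowest of those 3725, so 6.52% is not the share among peaks close to its own score. Within 50 kb of the centre there was 1 peak without RANKL and 0 with RANKL. The RANKL list had a stretch of 126 kb free of peaks around the centre, and 20.3% of the stretches between neighbouring RANKL peaks on chromosome 17 were as long or longer. That share counts stretches by number. Long stretches take up more of the chromosome than short ones, so a fixed point falls in one this long more often than 20.3% of the time.

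**Figure D1:**
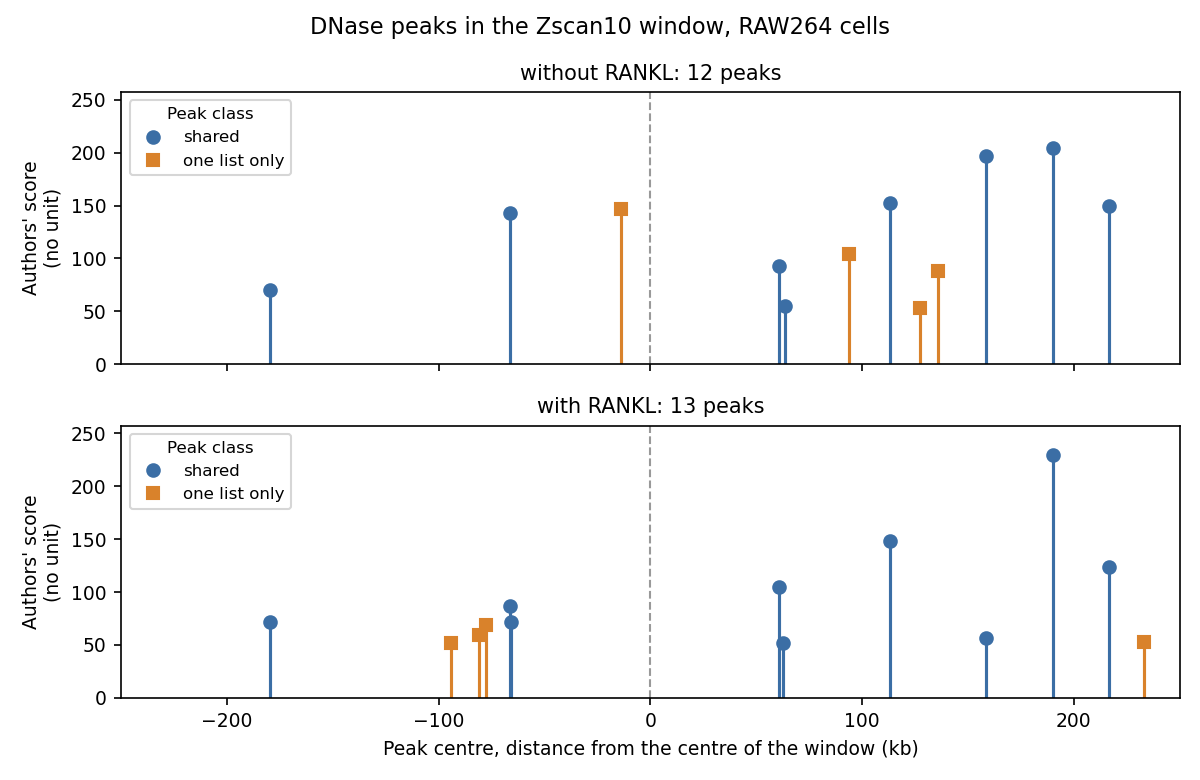
Peaks in the Zscan10 window, with the distance of each peak's centre from the centre of the window in kb on the horizontal axis and the authors' score on the vertical axis, for the library without RANKL (upper panel, 12 peaks) and with RANKL (lower panel, 13 peaks). Circles are peaks that overlapped the other list and squares are peaks of one list only; the square 13.8 kb below the centre in the upper panel has no peak under it in the lower panel.

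In all, 4 of the 12 Zscan10 peaks without RANKL had no RANKL peak on them, or 33.3% (95% exact binomial interval 9.92 to 65.1%), beside 39.3% over the whole list and 37.6% over the rest of chromosome 17. With RANKL, 4 of 13 were of that list only, or 30.8% (interval 9.09 to 61.4%), beside 34.3% over the list and 29.9% over the rest of the chromosome. Both shares were near their backgrounds. Classes depended on the overlap rule in 1 respect: when the overlap had to fill 50% of both peaks, 0 peaks of either list counted as shared in either window, since no RANKL peak filled 50% of the broad peak it lay in.

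Besides the site near the centre, the Zscan10 peaks found only without RANKL lay above the centre, within 43.8 kb of each other. The first, at 23842942 to 23844245, lay 93.6 kb above the centre, scored 104 (rank 6496) and was 18.9 kb from the nearest RANKL peak. The second, at 23876662 to 23877818, lay 127 kb above the centre and scored 53.2 (rank 12838), close to the lowest score of the list. The third, at 23884851 to 23886775, lay 136 kb above the centre and scored 88.2 (rank 7958). A shared site at 23862421 to 23864230, with scores of 153 without and 148 with RANKL, lay between the first and the second.

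The Zscan10 peaks found only with RANKL were all narrow and of low to middle rank, and 3 of the 4 lay together below the centre within 16.4 kb. They were at 23655826 to 23655967 (score 51.9, rank 15123), at 23668854 to 23668995 (score 59.0, rank 11590) and at 23672032 to 23672187 (score 68.7, rank 9130), with centres 94.1, 81.1 and 77.9 kb below the centre of the window. The last of these was 10.7 kb from the nearest peak without RANKL. On chromosomes 1 to 19, 7.76% of the 5465 peaks found only with RANKL had at least 2 others of their kind within 20 kb. The remaining one, at 23983184 to 23983309, lay 233 kb above the centre and scored 52.5 (rank 14666).

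The other Zscan10 peaks formed 8 sites found in both libraries, and at all 8 every RANKL peak fell entirely within the broad one. The strongest site of the window was the same in both lists. It lay at 23939128 to 23940985 without RANKL, with a score of 205 (rank 1596), and at 23939991 to 23940354 with RANKL, with a score of 230 (rank 1405), 190 kb above the centre. At 7 of the 8 sites there was 1 RANKL peak, and the broad peak was 2.31 to 13.9 times as wide (median 5.10). The eighth, at 23682851 to 23684823 (score 143 without RANKL), held 2 RANKL peaks, with scores of 86.5 and 72.1, which together filled 39.3% of its width. Centres of the broad peak and of its highest RANKL peak lay a median of 99.2 bp apart, with the largest gap, 1034.5 bp, at the weak site at 23812082 to 23815061.

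At Hp, in contrast, the site nearest to the centre of the window was present in both libraries. Without RANKL it lay on chromosome 8 at 112088051 to 112090793, 10.6 kb below the centre, and was 2743 bp wide, the widest of the window, with a score of 147 (rank 3682). With RANKL it was called as 2 peaks, at 112089263 to 112089793 (score 183, rank 2129) and at 112089796 to 112090237 (score 109, rank 4760), only a few bases apart. Both lay inside the broad peak and filled 35.5% of it. The site stood higher than 72.7% of the list without RANKL and, by its higher peak, than 87.0% of the RANKL list.

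The strongest Hp site was also shared. Without RANKL it lay at 112215959 to 112218135, 117 kb above the centre, with a score of 301 (rank 429), and with RANKL at 112216696 to 112217242, with a score of 250 (rank 1179). None of the 429 peaks without RANKL that scored as high lacked a RANKL peak, beside 39.3% over the whole list. A further shared site lay 32.4 kb above the centre, at 112131484 to 112133398, with scores of 176 (rank 2490) and 128 (rank 3791). The other shared sites, at 112260652 to 112262124 and at 112273864 to 112275527, scored 103 and 89.5 without RANKL and 52.3 and 71.1 with RANKL. Where a single RANKL peak lay on the broad one, as at 4 of the 5 sites, the broad peak was 3.98 to 10.6 times as wide.

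**Figure D2:**
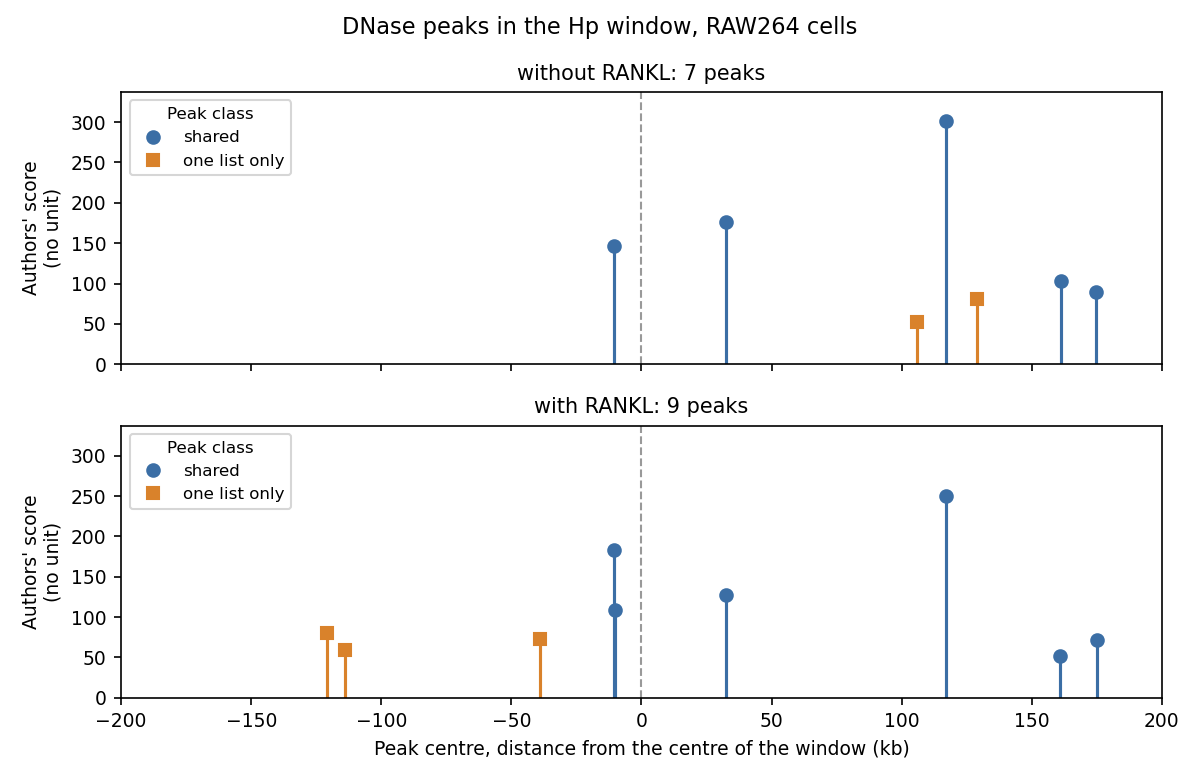
Peaks in the Hp window, with the distance of each peak's centre from the centre of the window in kb and the authors' score, for the library without RANKL (upper panel, 7 peaks) and with RANKL (lower panel, 9 peaks). Circles are shared peaks and squares are peaks of one list only; the 3 squares with RANKL all lie below the centre and the 2 without RANKL above it.

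Peaks of one list only numbered 2 of 7 without RANKL at Hp, or 28.6% (interval 3.67 to 71.0%), beside 36.2% over the rest of chromosome 8. With RANKL they numbered 3 of 9, or 33.3% (interval 7.49 to 70.1%), beside 33.7%. These shares too were near the background, and with so few peaks the intervals are wide. The peaks of the 2 libraries that had no counterpart lay on opposite sides of the window. Without RANKL they were at 112205403 to 112206656 (score 52.1, rank 13052) and at 112228500 to 112229610 (score 81.0, rank 8772), 106 and 129 kb above the centre, on either side of the strongest site and 10.0 and 11.3 kb from the nearest RANKL peak.

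With RANKL they were at 111978860 to 111979060 (score 80.4, rank 7282), at 111985851 to 111986046 (score 59.8, rank 11338) and at 112060966 to 112061151 (score 72.6, rank 8425). Their centres lay 121, 114 and 38.9 kb below the centre of the window. The first was 109 kb, the second 102 kb and the third 26.9 kb from the nearest peak without RANKL. They stood higher than 55.7%, 31.0% and 48.8% of the RANKL list, and each scored above 58.0, the median of the 5634 peaks found only with RANKL. Of the 7283 RANKL peaks that scored at least as high as the first, 920 (12.6%) were of that list only, beside 34.3% over the whole list. The first had the lowest score among those 7283, so 12.6% is not the share among peaks close to its own score. The library without RANKL had no peak in the window below the site nearest to the centre.

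The place of a shared site within each list is given side by side, as the share of that library's peaks with a lower score, with the highest RANKL peak used where a site held several. Since the lists differ in length and in peak width, and the definition of the score and the read depth are unknown, a site's places do not show a change at the site. In the Zscan10 window the 8 sites stood between 7.90% and 88.2% of the list without RANKL and between 6.20% and 91.5% of the RANKL list. The site at 23939128 to 23940985 stood highest in both lists, and the site at 23812082 to 23815061 lowest in both. The site at 23907681 to 23909021, 158 kb above the centre, scored 197 without RANKL and stood at 86.6% of that list, and its RANKL peak, 138 bp wide, scored 57.0 and stood at 24.7% of the other.

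In the Hp window the 5 sites stood between 42.0% and 96.8% without RANKL and between 9.58% and 92.8% with RANKL. The site at 112215959 to 112218135 stood highest in both lists. The site at 112260652 to 112262124 stood at 51.0% without RANKL and at 9.58% with RANKL, where it was the lowest. This site and the Zscan10 site 158 kb above the centre are named because their places lay farthest apart, and they were chosen after their values were seen.

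**Figure D3:**
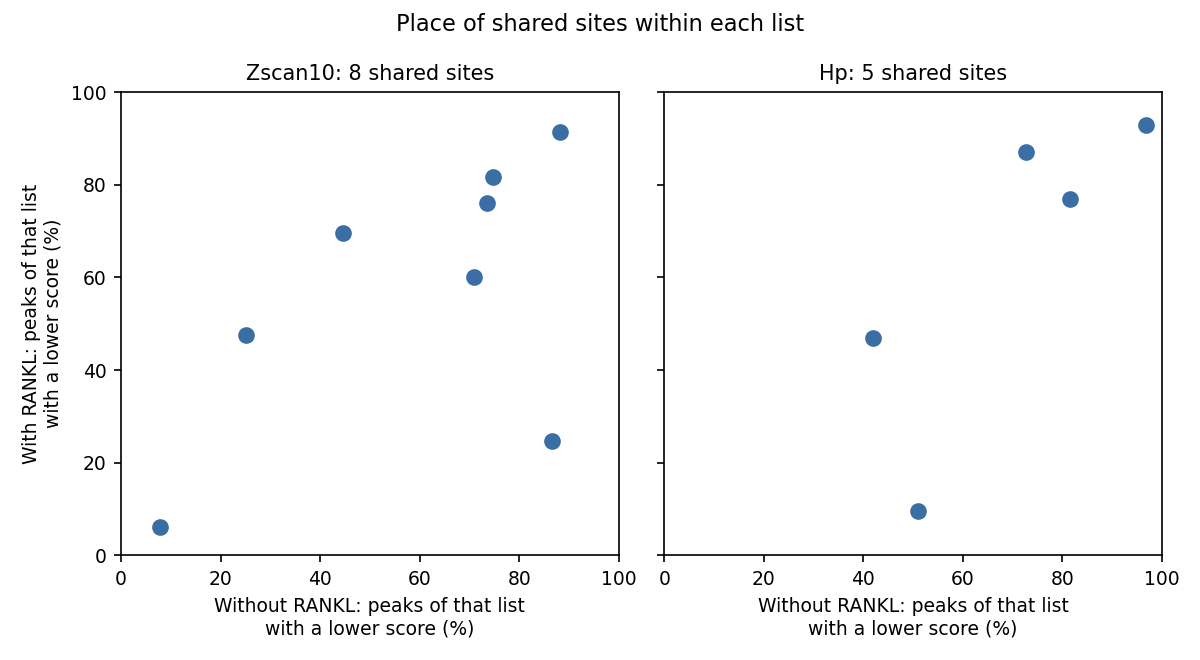
Place of the 8 Zscan10 and 5 Hp shared sites within each list, as the percent of peaks of the same list with a lower score, with the list without RANKL on the horizontal axis and the RANKL list on the vertical axis; each point is 1 site. The point at 86.6% and 24.7% is the Zscan10 site 158 kb above the centre, and the point at 51.0% and 9.58% is the Hp site at 112260652 to 112262124.

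Both windows were rich in peaks for their chromosomes in both libraries. The Zscan10 window held 24.0 peaks per Mb without RANKL, against 7.01 over the rest of chromosome 17 (ratio 3.42, 95% exact conditional Poisson interval 1.76 to 6.02). With RANKL it held 26.0 against 8.04 (ratio 3.23, interval 1.71 to 5.56). The Hp window held 17.5 against 5.09 on chromosome 8 without RANKL (ratio 3.44, interval 1.38 to 7.13) and 22.5 against 6.37 with RANKL (ratio 3.53, interval 1.61 to 6.74). The intervals allow for counting error alone, as if each peak were placed independently of its neighbours.

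Much of each chromosome held no peaks, and the surplus was smaller beside the parts that did. Counted only over 100 kb bins with a peak of either library, the ratios were 1.42 and 1.34 for Zscan10 and 1.15 and 1.18 for Hp, without and with RANKL. The width of the window mattered too: at 2 times the width the ratio without RANKL was 2.14 for Zscan10 and 2.21 for Hp, and in the central 50% of the Hp window it was 1.95. Among 182 other consecutive 500 kb windows of chromosome 17, 163 held fewer peaks than the 12 of Zscan10 without RANKL and 15 held more, and with RANKL 171 held fewer than 13 and 10 held more. The density was not confined to the Zscan10 window. Those windows starting 0.5 to 6.0 Mb above its start held 7 to 16 peaks each without RANKL and 5 to 20 with RANKL. The window just below it held 0 and 1. Among 318 other 400 kb windows of chromosome 8, 284 held fewer peaks than the 7 of Hp without RANKL and 21 more, and with RANKL 297 held fewer than 9 and 19 more. Dense windows lay near Hp too: the one starting 1.6 Mb above its start held 9 peaks without and 14 with RANKL. The windows next to Hp held fewer, 2 and 4 just above and 0 and 0 just below.

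**Figure D4:**
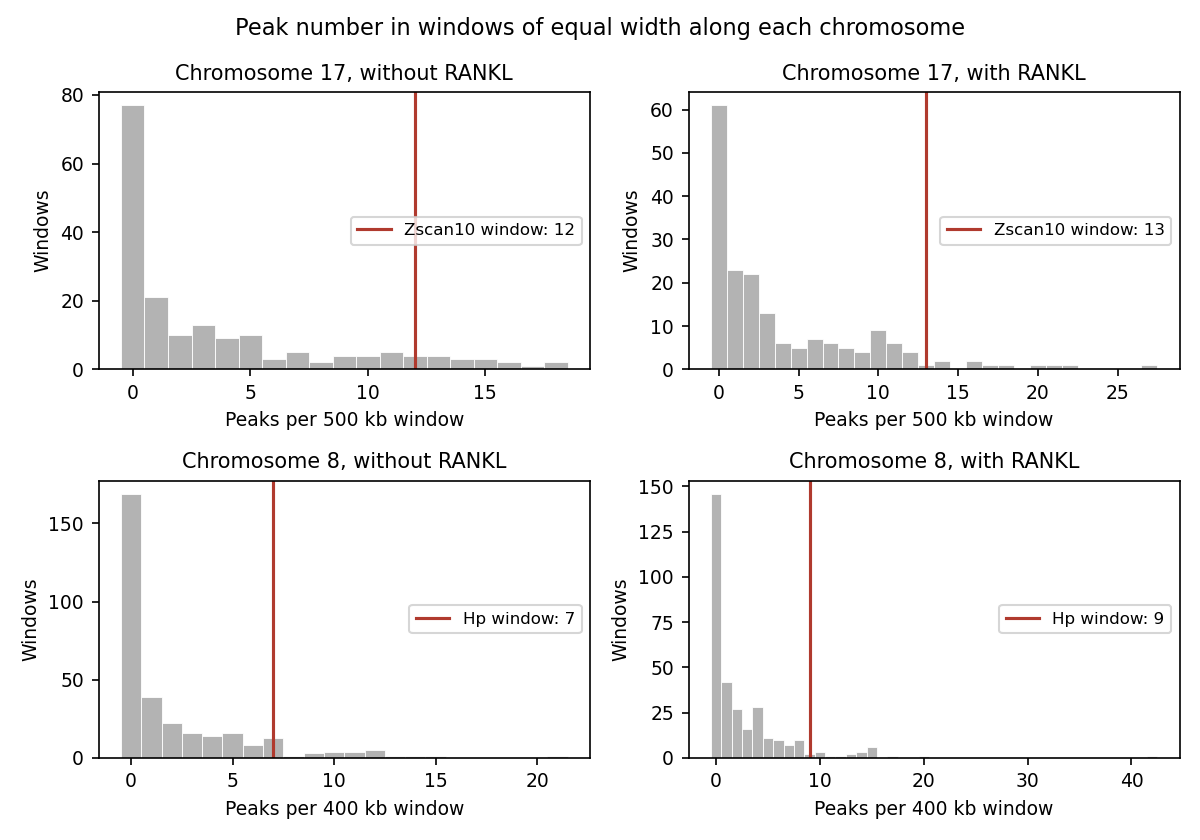
Number of DNase peaks per window of 500 kb on chromosome 17 (upper row) and 400 kb on chromosome 8 (lower row), without RANKL (left) and with RANKL (right); grey bars count the other windows of the chromosome and the red line marks the Zscan10 or Hp window. The line stands at 12 and 13 peaks for Zscan10 and at 7 and 9 for Hp, in the upper part of every distribution, while 77, 61, 169 and 146 other windows held no peak.

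There were 1.08 peaks with RANKL for each peak without in the Zscan10 window, beside 1.15 on the rest of chromosome 17, and 1.29 in the Hp window, beside 1.253 on the rest of chromosome 8. These are ratios of 2 single libraries whose peaks are mostly the same sites, so their error is not known and none is given. Within a library, the Zscan10 window had 1.37 times the density of the Hp window without RANKL (interval 0.498 to 4.11) and 1.16 times with RANKL (interval 0.457 to 3.06). Called peaks covered 3.998% of the Zscan10 window without RANKL and 0.706% with RANKL, against 1.33% and 0.251% of the rest of chromosome 17. In the Hp window the figures were 3.08% and 0.716%, against 0.947% and 0.183% of the rest of chromosome 8. Since median peak width was 1738 bp without and 233 bp with RANKL over the whole lists, cover is to be read within a library only.

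Peaks in the windows were of ordinary strength. At Zscan10 the median score was 123 without RANKL, against 104 on the rest of chromosome 17, and 71.6 with RANKL, against 80.2. At Hp it was 103 against 105 without RANKL and 80.4 against 74.7 with RANKL. By score, 3 of the 41 peaks belonged to the top 10% of a list, namely the strongest Zscan10 peak with RANKL and the strongest Hp peak of each library.

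The edges of the windows decided which peaks were counted. At Zscan10 the first peak without RANKL inside lay 70.0 kb above the lower edge and the nearest outside 1629 kb below it (score 102), and with RANKL the values were 70.3 kb and 33.5 kb (score 58.1). At the upper edge of Zscan10 the last peaks inside lay 32.7 kb without RANKL and 16.7 kb with RANKL from the edge, and the first outside 61.1 and 61.5 kb (scores 163 and 179). At Hp a strong shared site stood just past the upper edge, 1.603 kb outside without RANKL (score 198) and 2.45 kb with RANKL (score 190), and was not counted, while the last peaks inside were 24.5 and 24.99 kb from that edge. At the lower edge of Hp the first peak inside lay 188 kb from the edge without RANKL and 78.9 kb with RANKL, and the nearest outside lay 1787 kb (score 89.1) and 1363 kb (score 53.9) below it.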

How the data were processed

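For each library the authors deposited a list of peaks with positions and a score. The submitters' processing notes name Bowtie2 (version 2.0.0), MACS2 and the mm9 build. How the deposited score is defined, the threshold and whether a control was used: not given in the sources used here. Because peak widths differ between the lists, scores were not compared between them, and absence from a list was not read as closed chromatin. Read depth is unknown.

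Peaks overlapping a window by 1 bp were members, and a peak was shared when it overlapped the other list by 1 bp. The rest of a chromosome is the span from its first to its last peak without the window. Positions are 1-based. Python 3.11.15, numpy 2.4.6, pandas 2.3.3, scipy 1.17.1 and matplotlib 3.10.9 were used. Overlap and distance code was tested on simulated intervals. The text gives, per window and list, the site nearest to the centre, the highest score and every peak of one list only. Members, windows and lists were chosen with earlier results of these data known, and the spacing and place comparisons after the values were seen. Alternatives changed the overlap rule, score limit, merging, window width and chromosome span.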

Additional observations from a re-analysis of the deposited data

How the results depend on the processing

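Of 44 alternative values for peak number, shared number and density ratio in the windows, 29 stayed within 1.5 times the reported count or inside the reported interval. In the upper 50% of each list by score, the Zscan10 window held 7 peaks without and 5 with RANKL, and the Hp window 4 and 5. With both lists so reduced, 4 and 4 Zscan10 peaks and 3 Hp peaks without RANKL were shared. An overlap filling 50% of both peaks left 0 shared peaks at both loci in both lists. Over occupied 100 kb bins alone the density ratios were 1.42 and 1.34 at Zscan10 and 1.15 and 1.18 at Hp, because empty parts of the chromosome were left out. Density ratios inside their wide intervals still moved with the window: at 2 times the width they were 2.14 and 2.24 at Zscan10 and 2.21 and 2.55 at Hp, without and with RANKL, and in the central 50% they were 3.40 and 3.96 at Zscan10 and 1.95 and 3.12 at Hp. No paired analysis was possible because each condition had 1 library, and for the same reason no replicate could be left out. Unknown depth limits every statement about a site missing from a list.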

Other observations

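Both windows lie at the upper end of a long stretch without any peak in the library without RANKL. Below Zscan10 this stretch ran from 21871380 to 23569988 on chromosome 17 (1.70 Mb) and held 2 RANKL peaks, or 1.18 per Mb. Below Hp it ran from 110112747 to 112088050 on chromosome 8 (1.98 Mb) and held 8 RANKL peaks, 3 of them the RANKL-only peaks of the Hp window, with scores from 51.2 to 80.4. That is 4.05 RANKL peaks per Mb. Over the 501 other stretches of at least 1 Mb on chromosomes 1 to 19 the median was 0.701 per Mb, and 157 of them were denser than the one below Zscan10 and 14 denser than the one below Hp. Of the 501, 119 held no RANKL peak. Stretches that hold few genes or cannot be mapped were not left out, so the median includes them. The stretches were looked at after the values were seen, and the length limit follows no annotation.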
